A study of Mus musculus with 18 samples.

Results

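Class I odorant receptor (OR) genes are the fish-like branch of the mouse OR family. They were taken here as the genes named Olfr543 to Olfr692, with Olfr33 and Olfr78, and without pseudogene symbols. The rule found 117 genes among 1097 OR genes and 23359 gene symbols, so class I genes made up 10.7% of the OR genes listed. Their RNA was measured in cells sorted from the main olfactory epithelium of mice whose strain the labels give as C57BL/6. The Taar5 line carried TAAR5-Cre and the L10-GFP reporter, and was sampled at postnatal day 11 to 14. It gave 7 libraries of GFP-positive cells (Taar5+) and 9 libraries of GFP-negative cells (controls). The Taar6 line carried TAAR6-Cre and the ZsGreen reporter, and was sampled at postnatal day 16 to 17. It gave 1 library of ZsGreen-positive cells (Taar6+) and 1 library of ZsGreen-negative cells, numbered 10 among the controls. The controls carried the same alleles as the positive cells. In both lines Cre was made from the transcript of the tagged Taar gene and switched the reporter on for good, so a positive cell was one that used that gene then or earlier. The negative cells were everything left in the gate, other cell types included. Nothing in the sources used here says whether the libraries of one group came from separate animals, so p-values measure the spread between libraries, which may be technical. Ages and strain are those of the labels, and the study's reporting summary gives an older age for both lines and a mixed background. Between the Taar5 and Taar6 lines, the reporter, the line itself and a possible age difference cannot be told apart.

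An olfactory sensory neuron (OSN) settles on one receptor gene, usually an OR gene, and a small population uses a trace amine-associated receptor (Taar) gene instead. Class I receptors bind mainly water-soluble odorants such as carboxylic acids, and their neurons lie mostly in the dorsal part of the epithelium. Class II receptors make up the rest of the family and are spread over many chromosomes. Class I genes sit together in a single cluster, where an enhancer called the J element acts on many of them. A pool of OSNs therefore contains class I RNA as a mixture of neurons, each with its own gene. In such pools, fewer cells that use a gene and less RNA per cell cannot be told apart.

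All 117 genes lay on chromosome 7 of GRCm38 between positions 102476579 and 105369355, a stretch of 2.89 Mb. The annotation called 116 of them protein coding and Olfr663 a polymorphic pseudogene. The beta-globin genes lie inside the cluster, with 68 class I genes before them and 49 after them. There were 61 genes on the plus strand and 56 on the minus strand, and 102 had a transcript with more than 1 exon.

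Some genes of the family are close in sequence, which matters when reads are assigned to single genes. The 4 genes with the highest mean TPM in the controls and the partner of one of them are shown over 30 coding bases from GENCODE M21. The stretch starts at the conserved receptor motif after the third membrane helix, and capitals mark the bases that differ from Olfr672.
Olfr672: atggcctttgatcgctacattgccatctgt
Olfr566: atggcTtttgatcgTtaTGtAgcGatctgC
Olfr640: atgAGctttgatcgTtTTGtGgcTatctgt
Olfr611: atggccttCgatcgGtaTGtGgccatTtCt
Olfr612: atggccttCgatcgGtaTGtGgccatTtCt

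Olfr566 and Olfr611 each differed from Olfr672 at 7 of the 30 bases, and Olfr640 at 8. Olfr611 and Olfr612 differed at 0 bases. Over whole annotated transcripts, 46.2% of the 50-base words of Olfr611 also occurred in another gene, with Olfr612 as the main partner. The share was 41.5% for Olfr612, 76.0% for Olfr603 (partner Olfr596) and 84.2% for Olfr688. It was 7.63% for Olfr672 and 5.95% for Olfr566, and the median over the 117 genes was 1.96%. The levels of the genes with a high share are uncertain, because the handling of reads that fit several genes is not given in the sources used here.

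Libraries differed widely in how many genes they held. Values are TPM, a share of the library corrected for gene length, so levels can be compared between genes, but the depth is unknown, and some values of 0 may be failed estimates. The number of rows above 0 ran from 5939 (control 2) to 17808 (Taar5+ 5). Among the 16 libraries of the Taar5 line, 5 controls (1, 3, 5, 6 and 9) and 3 Taar5+ libraries (1, 5 and 7) lay above the median number of symbols outside the OR family. They are called the complex libraries here, a split made after the data were seen. The summed TPM of 8 mature OSN markers, Omp and Gnal among them, ran from 14127 to 50249 in the controls and from 22506 to 30047 in Taar5+ libraries, and each marker was above 0 in all 16 libraries. One of the 8, Stoml3, was lower in Taar5+ libraries. It ran from 8364 to 24318 TPM in controls and from 2900 to 7921 TPM in Taar5+ cells (log2 fold change -1.42, SE 0.24, limma adjusted p = 0.00994).

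Class I RNA made up a smaller part of the library in Taar5+ cells than in controls, apart from 1 library on each side. Summed class I TPM was 2185 ± 1223 (SD, n = 9) in controls and 266 ± 281 (SD, n = 7) in Taar5+ libraries, so the Taar5+ mean was 12.2% of the control mean. Single controls lay between 425 and 4254 TPM around a median of 2320, and single Taar5+ libraries between 16.5 and 803 TPM around a median of 161. The lowest control was control 2, and 8 of the 9 controls lay above every Taar5+ library. Conversely, 6 of the 7 Taar5+ libraries lay below every control, and the exception was Taar5+ 5. This library also had the lowest summed Taar TPM of its group, 1517 against 4542 to 7804 in the others. In the Taar6 line the control had a sum of 1800 TPM and Taar6+ cells one of 376 TPM, which is 20.9%. The other 980 OR genes gave 12882 ± 3264 TPM (SD, n = 9) in controls and 1254 ± 1618 TPM (SD, n = 7) in Taar5+ libraries, or 9.74% of the control mean. In the Taar6 line that percentage was 10.5%. No test was made of whether the class I genes differed from the other OR genes.

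**Figure D1:**
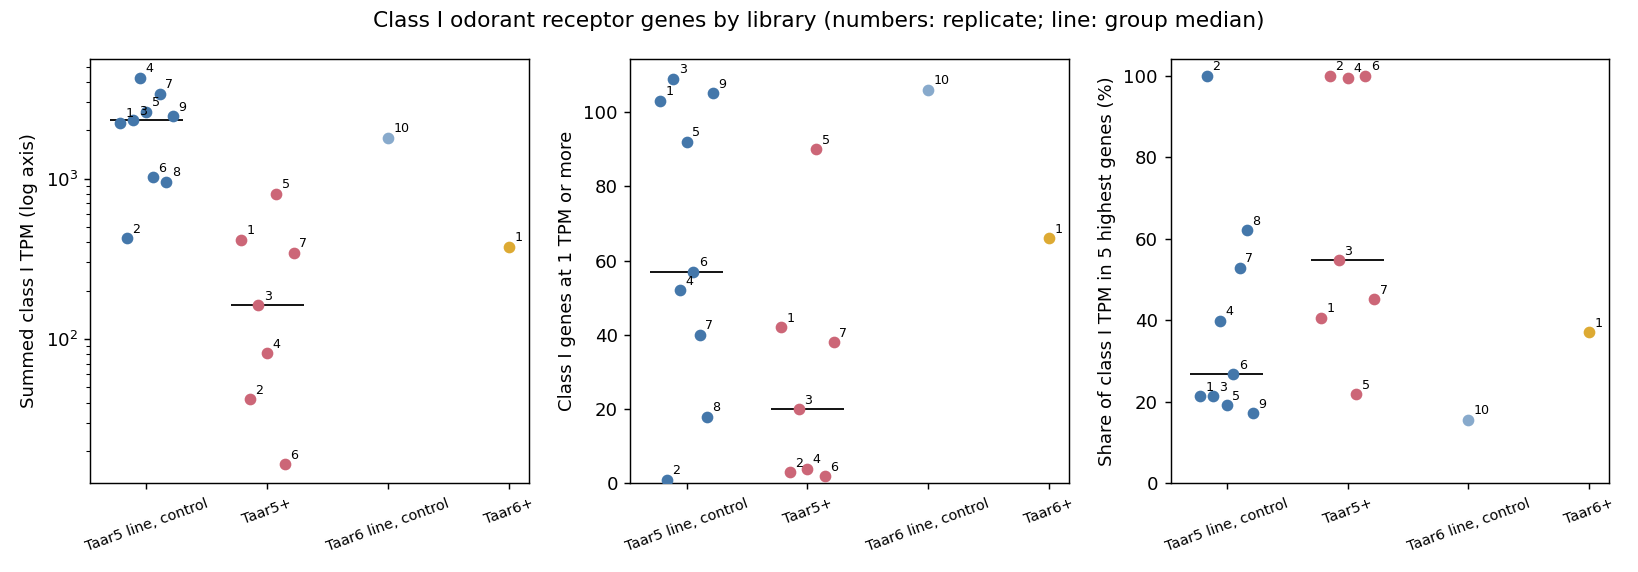
Summed class I TPM (left, log axis), the number of class I genes at 1 TPM or more (middle) and the percentage of class I TPM in the 5 highest genes (right) in each of the 18 libraries. Points carry the replicate number and lines are group medians. In the left panel Taar5+ 5, at 803 TPM, is the highest Taar5+ library and control 2, at 425 TPM, is the lowest control.

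The share of class I genes in OR RNA varied more among Taar5+ libraries. Class I genes held 14.0% ± 6.41 (SD, n = 9) of summed OR TPM in controls, with a lowest value of 5.80% and a highest of 22.6%. The share lay above 10.7%, the class I part of the gene number, in 6 of the 9 controls. In Taar5+ libraries it was 24.0% ± 18.7 (SD, n = 7), from 1.36% in Taar5+ 6 to 55.8% in Taar5+ 7, and 5 of 7 lay above 10.7%. The groups overlapped over almost the whole control range. Taar5+ 7 had few other OR genes, with 64 of 980 at 1 TPM or more beside 38 of 117 class I genes, whereas Taar5+ 6 had 48 and 2. The share was 14.2% in the Taar6 control and 24.8% in Taar6+ cells. Expressed per gene listed, class I genes had 1.41 ± 0.72 times the mean TPM of other OR genes in controls (SD, n = 9) and 3.38 ± 3.58 times in Taar5+ libraries (SD, n = 7), a difference smaller than the spread among the latter.

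Next, the number of class I genes detected was counted. At 1 TPM or more, the controls held from 1 (control 2) to 109 (control 3) of the 117 genes, with a median of 57. Taar5+ libraries held from 2 (Taar5+ 6) to 90 (Taar5+ 5), with a median of 20. The ranges overlapped, and in both groups each complex library held more class I genes than each of the remaining libraries. Among the remaining libraries, the number of class I genes did not always follow the number of symbols outside the OR family. The 5 complex controls held 93.2 ± 21.2 genes (SD, n = 5), and the other 4 controls held 27.8 ± 22.7 (SD, n = 4). In the same way, the 3 complex Taar5+ libraries held 56.7 ± 28.9 genes (SD, n = 3) and the other 4 held 7.25 ± 8.54 (SD, n = 4). Other OR genes showed the same split: 72.6% ± 9.22 (SD, n = 5) of them reached 1 TPM in complex controls, beside 79.7% ± 18.1 (SD, n = 5) of class I genes. In complex Taar5+ libraries these percentages were 35.0% ± 34.7 and 48.4% ± 24.7 (SD, n = 3). The Taar6 control held 106 class I genes and Taar6+ cells held 66.

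Nearly the whole family was seen at least once. Of the 117 genes, 116 reached 1 TPM in at least 1 control and 94 in at least 1 Taar5+ library. The latter number rests largely on Taar5+ 5, which alone held 90 of them, beside 722 of the 980 other OR genes. The remaining Taar5+ libraries each held from 2 to 42 class I genes. Olfr663, the polymorphic pseudogene, stayed under 1 TPM in all 18 libraries, with at most 0.577 TPM. No gene was listed at 0 in every library. On the other hand, no gene was detected everywhere: 19 genes reached 1 TPM in 7 controls, and 0 genes did so in 8. Sparse libraries largely set this limit, since control 2 held 1 class I gene at 1 TPM or more and control 8 held 18. Among Taar5+ libraries, Olfr570 and Olfr679 reached 1 TPM in 5 of 7, more than any other class I gene, and 98 genes had a Taar5+ median of 0.

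Class I RNA was spread over more genes in complex controls than in the other controls. The 5 highest genes of each library held 21.2% ± 3.56 (SD, n = 5) of class I TPM in complex controls, and the single highest gene from 4.44% to 7.17%. In these libraries it took from 13 to 21 genes to reach 50% of class I TPM. In the other 4 controls the 5 highest genes held from 39.9% to 100%. Control 2 was the extreme case, since Olfr594 at 425 TPM was its only class I gene above 0. In control 7, Olfr672 alone held 32.9%. Taar5+ libraries ran from 21.8% (Taar5+ 5) to 100% (Taar5+ 2 and Taar5+ 6), with a median of 54.8%. Taar5+ 2 and Taar5+ 6 had only 3 and 5 class I genes above 0, which fixes their share at 100%, and Taar5+ 4 had 6. Taar5+ 1 and Taar5+ 7, which were complex as well, had 40.6% and 45.2% in their 5 highest genes and needed 8 and 7 genes for 50%, beside 39.9% and 8 genes in control 4. In Taar5+ 6, Olfr681 held 82.7% of a sum of 16.5 TPM. In Taar6+ cells the 5 highest genes held 37.1%, beside 15.6% in the Taar6 control.

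**Figure D2:**
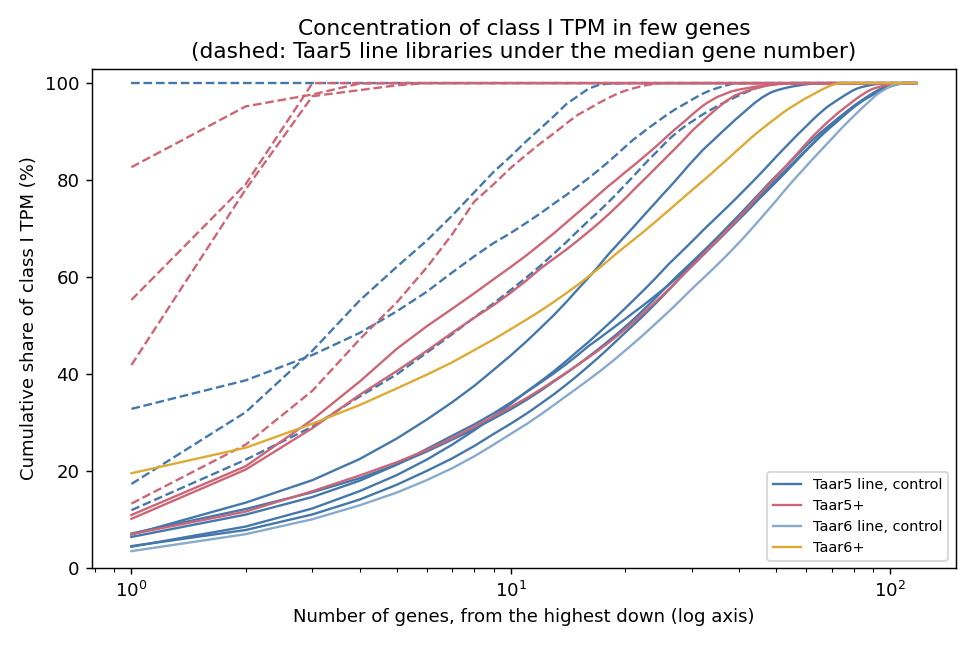
Cumulative percentage of class I TPM (vertical axis) held by the highest genes of a library, counted from the highest down (horizontal log axis), with 1 line per library. Dashed lines are the libraries of the Taar5 line under the median number of symbols. At 5 genes the complex controls lie between 17.2% and 26.7%, and Taar5+ 5, at 21.8%, lies among them.

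The inverse Simpson number gives the count of equally expressed genes that would be as concentrated. It was 48.1 ± 9.34 (SD, n = 5) in complex controls and 9.86 ± 8.05 (SD, n = 4) in the other controls. It was 65.0 in the Taar6 control, the highest of the 18 libraries. In Taar5+ libraries it was 49.4 for Taar5+ 5 and from 1.43 to 21.3 for the other 6. In Taar6+ cells it was 18.2.

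Which gene led differed from library to library. The 18 libraries had 14 different highest class I genes, 6 among the 9 controls and 7 among the 7 Taar5+ libraries. Olfr672 was highest in controls 1, 3, 7 and 9 and in Taar5+ 5. Other leaders were Olfr611 in control 4, Olfr610 in control 5, Olfr632 in control 6 and Olfr615 in control 8. Among Taar5+ libraries the leaders were Olfr669 in library 1, Olfr570 in 2, Olfr633 in 3, Olfr566 in 4, Olfr681 in 6 and Olfr578 in 7. Olfr549 led in the Taar6 control and Olfr571 in Taar6+ cells. Across the 117 genes, complex controls resembled one another more than the others did. Spearman's rho ran from 0.23 to 0.62 over the 10 pairs of complex controls (median 0.41), and from 0.04 to 0.11 over the 3 pairs of controls 4, 7 and 8. The Taar6 control, from another line and age, had rho from 0.30 to 0.59 with the complex controls, and Taar5+ 5 had rho from 0.43 to 0.68. These correlations are across genes, which are not independent replicates, and they depend on how many genes each library held.

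**Figure D3:**
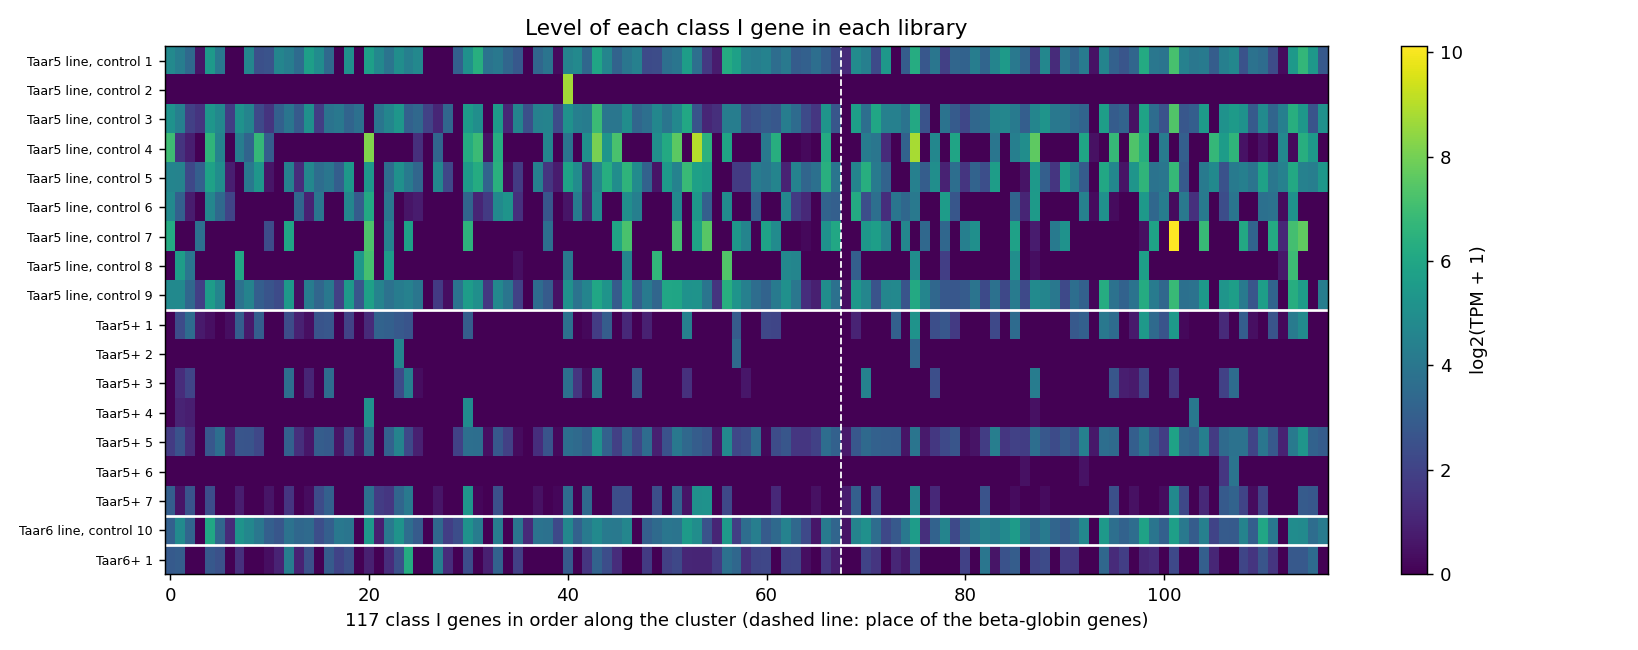
Level of every class I gene (columns, in their order along the cluster) in every library (one per line), as log2(TPM + 1) on the colour scale. White lines part the groups and the dashed line marks the place of the beta-globin genes. Complex controls are coloured along the whole cluster, but control 6 among them has gaps, with 67 genes above 0. Control 2 shows 1 gene and Taar5+ 2, 4 and 6 show 3, 6 and 5 genes above 0.

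Olfr672 had the highest mean TPM of the family in the controls. The gene lies on the minus strand at chr7:104995760-105002029. Its level ran from 0 to 1111 TPM in the controls, with a median of 109, and from 0 to 56.4 TPM in Taar5+ libraries, with a median of 1.93. The highest value came from control 7, and the 4 complex controls 1, 3, 5 and 9 lay between 109 and 166 TPM, whereas 3 controls were listed at 0. The Taar6 control had 51.9 TPM and Taar6+ cells had 3.70 TPM. The groups overlapped, and the difference did not pass the test (log2 fold change -1.77, SE 1.59, limma adjusted p = 0.947). Its profile over the 9 controls was most like those of Olfr648, Olfr571 and Olfr557, with Pearson's r of 0.99, 0.98 and 0.98 on log2(TPM + 1). All 4 genes were under 1 TPM in the same 4 controls (2, 4, 6 and 8), and r is given as a description.

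The level of the leading genes often rested on a single control. Control 7 held 67.6% of the summed control TPM of Olfr672, and without it the mean of this gene was 66.5 TPM, which ranked 6 in the family, behind Olfr640 at 90.2 TPM. Olfr566 (minus strand, chr7:102855337-102858765) ran from 0 to 291 TPM in controls, with a median of 52.8, and from 0 to 33.9 TPM in Taar5+ libraries, with a median of 1.32. It was at 38.7 TPM or more in 7 controls. Olfr640 (chr7:104018686-104025573, minus strand) reached 442 TPM in control 4 and from 0 to 75.3 TPM in the other controls, and its Taar5+ values ran from 0 to 35.6 TPM. Olfr611 (chr7:103516465-103520846, minus strand) reached 509 TPM in the same control, while the other 8 controls lay between 0 and 56.7 TPM. Olfr594 (chr7:103216996-103222313, plus strand) was at 425 TPM in control 2 and from 0 to 56.3 TPM in the others. In Taar5+ cells it lay between 11.0 and 12.8 TPM in 4 libraries and was listed at 0 in 3. The level of Olfr689 was more even, with a control median of 68.6 TPM and a range of 0 to 137 TPM. Olfr669 had a control median of 56.9 TPM and a highest value of 97.8 TPM. Olfr598, Olfr690 and Olfr609 completed the 10 genes with the highest control means. Together these 10 genes held 35.8% of the summed control means, and 18 genes were enough for 50%. In the 5 complex controls alone, the 10 highest held 27.1%, 25 genes were needed for 50%, and 5 of the 10 genes were the same. For 32 of the 117 genes, a single control held over 50% of the summed control TPM.

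**Figure D4:**
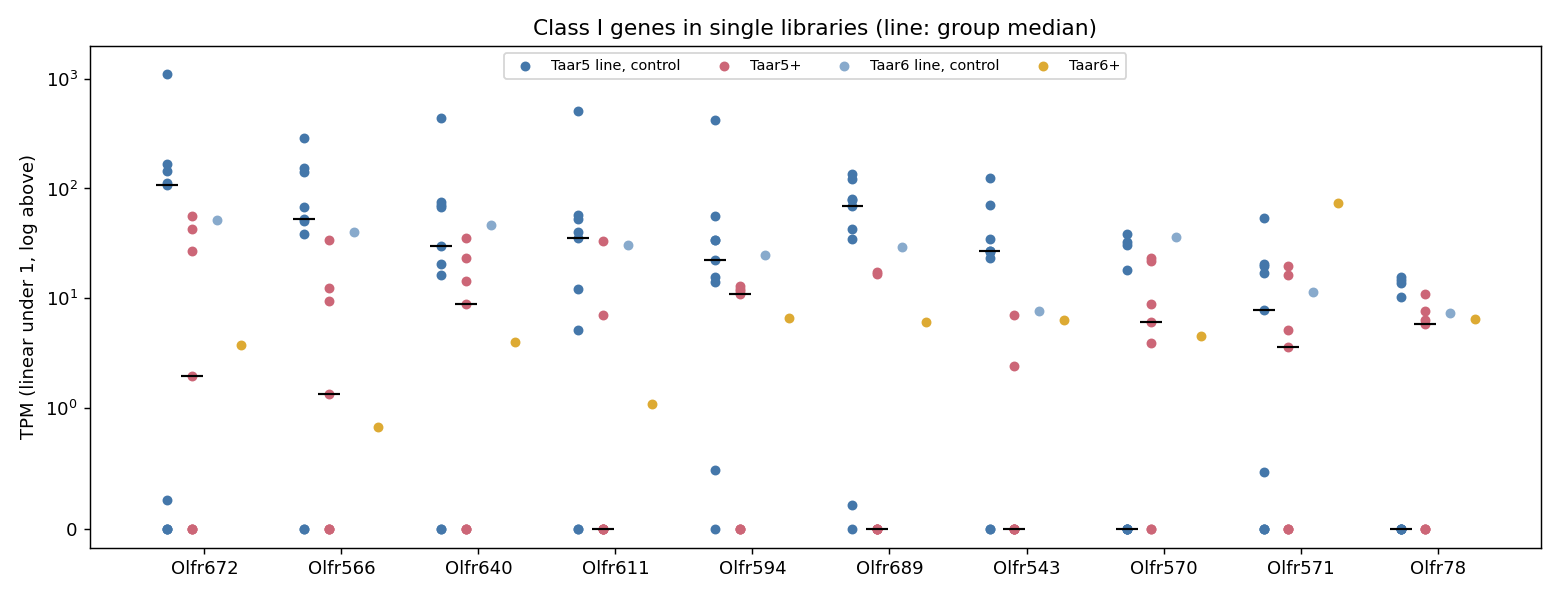
TPM of 10 class I genes (vertical axis, linear under 1 and log above) in single libraries, coloured by group, with lines at the group medians. Olfr672 reaches 1111 TPM in 1 control. Olfr570 and Olfr78 have a control median of 0, and Olfr571 is highest in Taar6+ cells at 73.6 TPM.

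Levels were then compared gene by gene between Taar5+ libraries and controls. The test was limma on log2(TPM + 1). It took genes that reached 1 TPM in 7 or more of the 16 libraries, which were 64 of the 117 class I genes and left 53 untested. Of the 64, 19 passed the filter through controls alone. None of the 64 had an adjusted p under 0.05, where 21 of all 12502 genes tested (0.168%) did, and the lowest adjusted p was 0.216. At an unadjusted p under 0.05, 30 of the 64 were lower and 0 higher in Taar5+ libraries, where 5.38% of all genes tested were lower. Among other OR genes, 0 of 411 passed the adjusted threshold and 291 were lower at an unadjusted p under 0.05. The median log2 fold change was -2.04 for class I genes, -2.19 for other OR genes and 0.02 for all genes tested. Because a gene that is high in one group passes the filter through that group, these counts describe the tested genes and carry no weight for the family. Over all 117 genes, with no filter, the mean log2(TPM + 1) was lower in Taar5+ libraries for 114 and higher for 3, with a median difference of -1.54. Over all 972 other OR genes above 0 in the Taar5 line it was lower for 97.9%, with a median of -1.43, and over all genes for 52.6%, with a median of -0.02.

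The outcome of this test depended on single libraries. Without control 2, Olfr543, Olfr629, Olfr689 and Olfr601 passed the adjusted threshold, all lower in Taar5+ libraries. They were 4 of 64 class I genes tested, beside 70 of 403 other OR genes and 148 of all 12460 genes. Leaving out control 2 and Taar5+ 5 together was chosen after the data were seen. They are the lowest control and the highest Taar5+ library in summed class I TPM. Leaving them out therefore widens the class I difference by construction, and the resulting count carries no weight for the family. Without both, 13 of 50 class I genes passed, all lower. In that fit 122 of 255 other OR genes and 337 of all 11915 genes passed.

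Olfr689, Olfr543, Olfr629, Olfr609 and Olfr601 were the 5 with the most negative log2 fold change of the 64 genes tested. This ranking uses nearly the same libraries as the fit without control 2 and adds no support to it. Olfr543, Olfr601, Olfr609 and Olfr689 passed the filter through controls alone, so their place at this end carries no weight. Olfr689 (plus strand, chr7:105311165-105319662) was at 34.3 TPM or more in 7 of 9 controls and listed at 0 in 5 of 7 Taar5+ libraries (log2 fold change -3.66, SE 1.12, adjusted p = 0.294 in limma). Olfr543 was at 23.0 to 124 TPM in 7 controls, at 0 in controls 2 and 8, and at 0 in 5 Taar5+ libraries, with 2.41 and 7.02 TPM in Taar5+ 5 and Taar5+ 7 (log2 fold change -3.46, SE 0.95, limma adjusted p = 0.216). Olfr629 was above 0 in a single Taar5+ library, at 11.1 TPM in Taar5+ 5 (log2 fold change -3.28). Olfr609 and Olfr601 had log2 fold changes of -3.25 and -3.23.

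At the other end of the 64 genes tested were Olfr570, Olfr78, Olfr545, Olfr571 and Olfr666. The 53 untested genes have no place in this ranking. Olfr570 and Olfr78 reached 1 TPM in 4 controls, and Olfr545 and Olfr571 in 5. These genes therefore passed the filter only with the help of Taar5+ libraries, and their place at this end carries no weight. Olfr570 was at 18.2 to 38.6 TPM in controls 1, 3, 5 and 9 and listed at 0 in the other 5, while Taar5+ libraries held up to 23.3 TPM and had a median of 6.04 (log2 fold change 0.32, SE 1.06, limma adjusted p = 0.981). Olfr78 encodes a receptor for short-chain fatty acids that is also known from the carotid body. Its values were 10.1 to 15.7 TPM in controls 1, 3, 5 and 9 and 0 in the other 5, and 5.74 to 10.9 TPM in 4 Taar5+ libraries and 0 in the other 3. The log2 fold change of Olfr78 was 0.05, with SE 0.87, and the sign of this difference and of that of Olfr570 changed when single libraries were left out. In the complex libraries alone they were -0.17 for Olfr78 and -0.38 for Olfr570. Olfr545, Olfr571 and Olfr666 had log2 fold changes of -0.36, -0.60 and -0.66.

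Other receptors with described ligands were followed as well. Olfr544, a receptor for azelaic acid, ran from 0 to 49.3 TPM in controls, with a median of 18.5, and from 0 to 4.82 TPM in Taar5+ libraries (log2 fold change -2.04, SE 0.83, limma adjusted p = 0.542). Olfr558, a receptor for short-chain fatty acids, reached 10.5 TPM in controls and 1.57 TPM in Taar5+ libraries. Olfr691, which responds to carboxylic acids, reached 43.1 and 8.15 TPM. Olfr33 reached 50.6 TPM in controls and 1.08 TPM in Taar5+ libraries. The last 3 genes did not pass the filter and were not tested.

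The study used a mixed in situ probe for 8 class I genes, which were also followed here. Olfr672 and Olfr690 had the highest control means of them, and the highest value of each came from control 7. Olfr690 was at 0 to 199 TPM in controls and 0 to 37.4 TPM in Taar5+ libraries. Olfr653 ran from 0 to 55.0 TPM in controls with a median of 16.7, and from 0 to 10.5 TPM in Taar5+ libraries. Olfr547 was at most 12.5 TPM in controls and 0.670 TPM in Taar5+ libraries, and Olfr639 at most 24.2 and 0.428 TPM. Olfr552 was listed at 0 in 5 controls and reached 65.5 TPM in control 8, and 7.23 TPM in Taar5+ libraries. Olfr692 was listed at 0 in 5 controls and in all Taar5+ libraries but Taar5+ 5, where it was at 6.71 TPM. Olfr543 is described above. Olfr578, part of the study's mixed OR probe, had a control median of 44.1 TPM and led in Taar5+ 7 at 37.9 TPM.

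In the Taar6 line, 104 class I genes were lower in Taar6+ cells than in the control, 6 were higher and 7 were at 0 in both. The median difference in log2(TPM + 1) was -2.21 for class I genes and -2.30 for other OR genes, and -0.20 over all genes above 0. There are no replicates in this line, so none of these differences has a replicate check. The 6 genes that were higher are named because they are few. Olfr571 had the largest difference, from 11.4 TPM in the control to 73.6 TPM in the positive cells. In the same order, positive cells first, Olfr557 was at 18.7 and 13.0 TPM, Olfr575 at 19.7 and 9.77 TPM, and Olfr616 at 9.48 and 2.58 TPM. Olfr613 was at 2.49 and 1.04 TPM, and Olfr583 at 0.830 and 0 TPM. In the Taar5 line the highest values of Olfr571 were 53.3 TPM in controls and 19.6 TPM in Taar5+ libraries.

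Levels along the cluster were summed in 6 windows of 0.5 Mb from the first gene. Mean TPM per gene in the controls ran from 12.9 in the first window, with 30 genes, to 30.1 in the last, with 16 genes. The last window holds Olfr672, which was at 1111 TPM in control 7. In the 5 complex controls these means were 13.7 ± 3.87 and 26.2 ± 11.0 (SD, n = 5), and the lowest window had 13.5 ± 4.56. The Taar5+ mean was between 9.80% and 14.4% of the control mean in every window. Of the genes, 58.1% lie before the beta-globin genes, and in complex controls 54.1% ± 3.15 (SD, n = 5) of class I TPM came from them. In complex Taar5+ libraries this was 49.7% ± 16.6 (SD, n = 3).

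**Figure D5:**
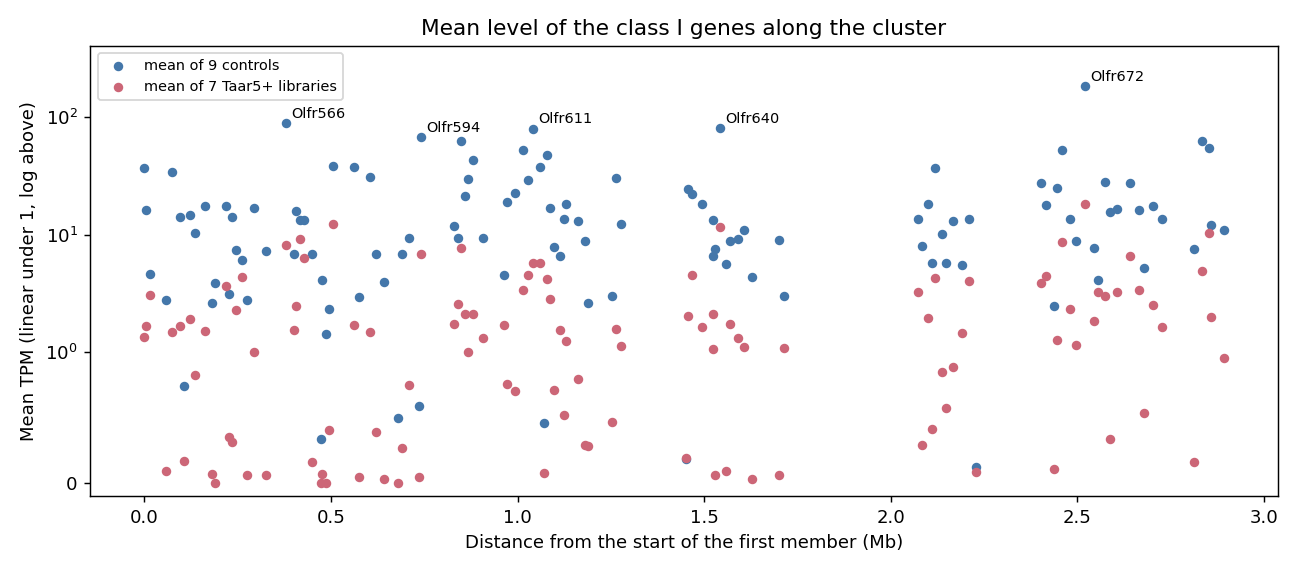
Mean TPM (vertical axis, linear under 1 and log above) of each class I gene over the 9 controls and over the 7 Taar5+ libraries, against the distance of its start from that of the first gene in Mb. The 5 genes with the highest control means are named, and the Taar5+ points lie below the control points along the whole cluster apart from single genes.

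Regulators of OR choice were followed as a group of 13 genes. Lhx2, Ldb1 and the Ebf factors bind OR enhancers or act with the factors that do, Kdm1a removes a repressive mark from the chosen gene, and Bcl11b restrains the choice of class I genes. None of the 13 passed the adjusted threshold, and Bcl11b was the only one at an unadjusted p under 0.05. Of all genes tested, 5.38% were lower in Taar5+ libraries at that level, so this single call carries no weight. Bcl11b ran from 6.49 to 27.0 TPM in controls and from 0 to 21.1 TPM in Taar5+ libraries (log2 fold change -1.36, SE 0.59, adjusted p = 0.614 in limma). The log2 fold change of Lhx2 was -0.02, with SE 0.33 and a limma adjusted p = 0.996. Both genes of the dorsal list passed, in opposite directions. Nqo1, an enzyme of dorsal OR neurons, was at 479 to 1742 TPM in controls and at 126 to 675 TPM in Taar5+ libraries (log2 fold change -2.48, SE 0.31, limma adjusted p = 0.000312). Acsm4, another dorsal marker, was at 247 to 836 TPM in controls and at 759 to 2462 TPM in Taar5+ libraries (log2 fold change 1.53, SE 0.26, limma adjusted p = 0.00994).

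Markers of basal, sustentacular, microvillar, glial and blood cells were summed in the same libraries, and none of those tested passed the adjusted threshold. The summed TPM of 3 horizontal basal cell markers (Krt5, Krt14, Trp63) was 0 in control 2 and 60.1 to 123 in the other controls, and it was at most 17.5 in Taar5+ libraries apart from Taar5+ 5, where it was 181. All 3 were lower at an unadjusted p under 0.05 and 0 passed the adjusted threshold. Of the 4 blood and immune markers in the table, 3 were lower in the same sense, with sums of 54.6 to 428 TPM in controls and 0 to 129 TPM in Taar5+ libraries. In Taar5+ libraries Krt5 was listed at 0 in 3, Ptprc in 5 and Cd52 in 4. Summed sustentacular markers, led by Cyp2g1, reached 6325 TPM in control 2 and 8737 TPM in Taar5+ 5, the libraries that stood apart above. The part of these cells in the class I levels was not tested.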

How the data were processed

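Cells sorted by FACS were made into Smart-seq2 libraries, which carry no molecular identifiers. Per the paper's methods, the authors mapped reads to mm10 with Hisat2 2.1.0 and quantified genes with Cufflinks 2.2.1, and the submitters' processing notes add Trimmomatic 0.36. The deposited values are TPM, a share of the library corrected for gene length. Each column summed to 1000000, apart from control 2, which summed to 1000115. How they were derived from the Cufflinks output, the annotation and the handling of strand and of multiply mapping reads are not given in the sources used here. TPM keep no depth, so no counting error or count test was possible.

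From the 23847 rows, the 488 that repeated a symbol were summed with the first. The Taar values of control 2 were copies of those of control 1 and were set aside (13 genes, 0 of class I). Genes at 1 TPM or more in 7 of 16 libraries were compared with limma 3.58.1 in R 4.3.3 (log2(TPM + 1), eBayes with trend, Benjamini-Hochberg over 12502 genes, threshold 0.05), a step that was tested on simulated data. Sums, counts and shares were computed in Python 3.11.15 and have no p-value. Positions and sequences are from GENCODE M21 on GRCm38, the assembly of mm10.

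The members and lists were chosen with earlier results of these data known. Named genes were the 10 highest by control mean, the 5 highest by Taar5+ mean, the highest of each library, the 5 most and 5 least negative fold changes, the in situ probe genes, genes with described ligands and Olfr33, and the 3 most like the leading gene. Others are named as chosen after their values were seen: Olfr583, Olfr575, Olfr596, Olfr603, Olfr612, Olfr613, Olfr616, Olfr663, Olfr679 and Olfr688. Alternatives covered the pseudocount, filters, scaling, weights, membership, the replicate block and leaving out libraries. The columns of all 18 libraries were used.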

Additional observations from a re-analysis of the deposited data

Results flagged for a closer look

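In 84 sets of values (single genes and library measures, within one group), 21 had one library far from the rest by Dixon's test at the 95% level. Chance gives about 1 in 20 for sets chosen blindly, but many of these genes were named for a high mean or for leading in a library, so their number cannot be read against that rate. Olfr547, Olfr629, Olfr639, Olfr648 and Olfr692 were each above 0 in a single Taar5+ library. The test flags such a set whatever the size of that value, and Olfr547, Olfr639 and Olfr648 were under 1 TPM there. Taar5+ 5 was far from its group in the inverse Simpson number of class I genes, at 49.4, in Olfr615 (26.0 TPM), in Olfr629 (11.1 TPM) and in Olfr692 (6.71 TPM). It was also the only Taar5+ library with Olfr639 and Olfr648 above 0, each at 0.428 TPM. Control 4 stood apart in Olfr611 (509 TPM), Olfr640 (442 TPM), Olfr598 (265 TPM) and Olfr666 (110 TPM). Control 7 did so in Olfr672 (1111 TPM) and Olfr571 (53.3 TPM), control 2 in Olfr594 (425 TPM), control 8 in Olfr615 (166 TPM) and control 5 in Olfr633 (80.7 TPM). Among the other Taar5+ libraries, library 1 stood apart in Olfr669 (42.4 TPM), Olfr653 (10.5 TPM) and Olfr547 (0.670 TPM), library 4 in Olfr566 (33.9 TPM), and library 7 in Olfr611 (33.2 TPM) and Olfr543 (7.02 TPM). In each case the library named was the highest of its group.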

How the results depend on the processing

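Leaving out 1 library at a time gave 16 to 148 genes past the threshold in all, and 0 to 4 class I genes. Both were highest without control 2, with 4 of 64 class I genes, 70 of 403 other OR genes and 148 of all 12460. Without Taar5+ 5 it was 66 of 11968 genes, with 0 of 50 class I genes and 6 of 264 other OR genes. Array weights gave 1349 of 12502 genes, with 48 of 64 class I genes and 375 of 411 other OR genes. In the same order, quantile normalization gave 109 of 12502, 4 of 64 and 51 of 411. Some settings were chosen after seeing the data. Of these, leaving out control 2 and Taar5+ 5 together gave 337 of 11915, 13 of 50 and 122 of 255. The complex libraries alone, also chosen so, gave 4 of 11232, 0 of 41 and 1 of 142. A pseudocount of 0.1 moved the median log2 fold change of class I genes from -2.04 to -3.02, since it stretches low values. The single highest gene, in place of the 5 highest, held a mean of 31.6% of class I TPM in Taar5+ libraries. With the replicate block over libraries numbered 1 to 7, 13 genes and 0 of 46 class I genes passed, beside 16 genes and 0 in the same libraries without it. Samples with the same number did not all deviate together (correlations from -0.01 to 0.28). When each was compared with all controls of the line, 3 of 7 Taar5+ libraries correlated best with their own number. This does not settle whether the numbers are pairs. The main fit did not use them as pairs, and the fit with the replicate block did. Olfr78 had a log2 fold change of -0.19 after quantile normalization, -0.38 with array weights, -0.17 in the complex libraries and -0.35 without control 2 and Taar5+ 5, and from -0.26 to 0.34 with 1 library left out. Olfr570 had -1.26 with array weights, -0.022 with all 18 libraries, -0.38 in the complex libraries and -0.28 without both libraries, and from -0.027 to 0.74 with 1 left out. Olfr571 reached 0.027 with array weights, Olfr545 0.16 in libraries numbered 1 to 7 (with the block and without) and 0.13 in the complex libraries, and Olfr666 0.21 in the latter. Apart from array weights and fewer libraries, whose construction differs as named, the cause of these changes was not tested. Of 765 values of 28 named genes, 709 kept direction and side of the threshold, 32 passed it and 24 changed sign. Pseudogene rows of the same numbers could not be added, since the table held 0. Depth is unknown, and the number of rows above 0 limits the number of genes detected.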

Other observations

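Some class I genes had exactly the same TPM above 0 as another class I gene in the same library. There were 28 such pairs of values in 12 libraries, from 26 pairs of genes, and 13 of them lay above 5 TPM. The highest was 28.8 TPM, shared by Olfr596 and Olfr603 in control 5, and these genes also share 50-base words. Olfr611 and Olfr612, identical over the 30 coding bases shown, were both at 1.09 TPM in Taar6+ cells. In other libraries the same genes differed, for example 509 TPM for Olfr611 and 89.1 TPM for Olfr612 in control 4, and 56.7 and 177 TPM in control 7. Most pairs had no such word in common as main partners, among them Olfr616 and Olfr622 at 18.3 TPM in control 3, and Olfr569 and Olfr600 at 16.2 TPM in the Taar6 control and again at 1.41 TPM in Taar6+ cells.

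The 7 OR genes beside the beta-globin genes, Olfr64 to Olfr69 and Olfr243, lie inside the cluster but were not counted as class I genes by the naming rule. With them included, class I genes held 14.5% of summed OR TPM in controls and 26.1% in Taar5+ libraries (means over 9 and 7 libraries).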
